A study of Mus musculus with 7 samples.

Results

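The cells examined here came from Pax7-GFP reporter mice, and the genes followed take part in the response of cells to heat or to cold. Satellite cells, the stem cells of skeletal muscle, are marked by the transcription factor Pax7. In these mice Pax7-driven CreERT2 removes a loxP-flanked STOP cassette once tamoxifen is given, so that green fluorescence marks the cells that expressed Pax7 at that time and also their progeny. From 12 weeks of age, all animals were kept for 4 weeks in normocapnia (room air; libraries NC1 to NC3) or hypercapnia (a chamber with 10% CO2; HC1 to HC4), and they were collected at 16 weeks. Tamoxifen was given to both groups, and the methods place it in the first 2 weeks of the exposure, so that the cells were labeled during it. The methods add a cardiotoxin injury 3 days before collection in both groups. The labels name no injury, the title of the deposited table carries a time of 40 hours that the labels do not explain, and the genotype field of the labels carries a different strain number in each library although the growth notes describe C57/B6 littermates. GFP+ mononuclear cells of the hind legs were sorted, and their RNA was read with a panel that amplifies 1 short stretch of each gene. Values are RPM, reads of a gene scaled to a common library total. They can be set side by side for 1 gene across libraries, but not for different genes.

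The members were chosen by name, with earlier results of this same contrast already known: Hsph1, Hspa1a, Hspa1b, Hspa8, Hspb1, Dnajb1, Hsp90aa1, Hsf1, Cirbp and Rbm3. Of these 10 genes, 6 matched a row among the 23930 genes of the deposited table. Hspa8, Hspb1, Hsp90aa1 and Rbm3 did not match a row under these symbols and were not analysed here. Because the choice of members drew on the comparison of hypercapnia with normocapnia, their levels and fold changes are given as descriptions, with standard errors and without a test of their own. How many of them were past the limits used for all genes is given beside the share of all genes, and nothing is read from that count. Each member was read well above the floor of 3 reads, which lay between 0.128 and 0.207 RPM, the lowest count of any member in any library being 266 reads (Hspa1a).

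The 7 libraries held between 14527445 and 23388710 reads. Macrophage transcripts were read in every library beside those of satellite cells, and the levels given here are those of the sorted fraction as a whole. The 10 satellite cell markers summed to 604 to 3463 RPM in normocapnia and 779 to 1552 RPM in hypercapnia. Sdc4 alone gave most of this sum in NC2 (781 RPM), NC3 (441 RPM), HC1 (441 RPM) and HC2 (429 RPM). Pax7 itself was at 268, 8.25 and 4.34 RPM across NC1 to NC3 and between 20.1 and 79.5 RPM in hypercapnia. The 10 macrophage markers summed to 12269 to 35012 RPM in normocapnia and 20100 to 24991 RPM in hypercapnia, and Lyz2 gave most of this sum in every library (29108 RPM in NC3). The sums thus follow the genes with the highest RPM and are no measure of cell shares. Of both lists 1 marker, the macrophage gene Adgre1, was called (higher in hypercapnia), and C1qa was at 0 in NC3 and HC3. Libraries also differed in Xist, the RNA of the inactive X chromosome, which was between 445 and 701 RPM in NC1, NC2, HC1 and HC2 and at most 0.125 RPM in NC3, HC3 and HC4. Ddx3y, a gene of the Y chromosome, was at 0 in the former libraries and between 103 and 206 RPM in the latter. The methods state that both sexes were used, and NC3 was the lone normocapnia library low in Xist.

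Heat shock proteins are chaperones, which hold unfolded proteins and help them to fold. When unfolded proteins accumulate, heat shock factor 1 (HSF1) forms trimers, binds to repeats of the sequence GAA in alternating orientation, and switches on chaperone genes. HSP70 proteins do the folding with J-domain proteins that deliver the client, and HSP110 proteins that exchange the nucleotide of HSP70. CIRBP and RBM3 belong to another branch: they are RNA-binding proteins whose transcripts rise with mild cold and fall with warmth. In skeletal muscle, HSP70 is known for its rise after exercise and injury.

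Hypercapnia and normocapnia libraries were apart in 2 of the 6 measured members, one in each branch. Hsph1, the HSP110 chaperone, was 2.83-fold higher in hypercapnia, and Cirbp, the cold-inducible RNA-binding protein, was 2.30-fold lower. The inducible HSP70 genes Hspa1a and Hspa1b, the cochaperone Dnajb1 and the regulator Hsf1 overlapped between the groups. Over all genes, limma called 2.57% where the p before adjustment was under 0.05 and the fold change exceeded 1.5 (1.43% higher and 1.14% lower in hypercapnia), and Hsph1 and Cirbp were past these limits. Among the 8229 genes that average 10 RPM or more, which is the range of all 6 members, 5.54% were called and 9.62% had groups that did not overlap. The members were selected on the same comparison. In limma 0 of all genes passed Benjamini-Hochberg adjustment (lowest adjusted p 0.351, with 1114 genes under 0.05 before adjustment), against 0 in edgeR and 29 in DESeq2.

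**Figure D1:**
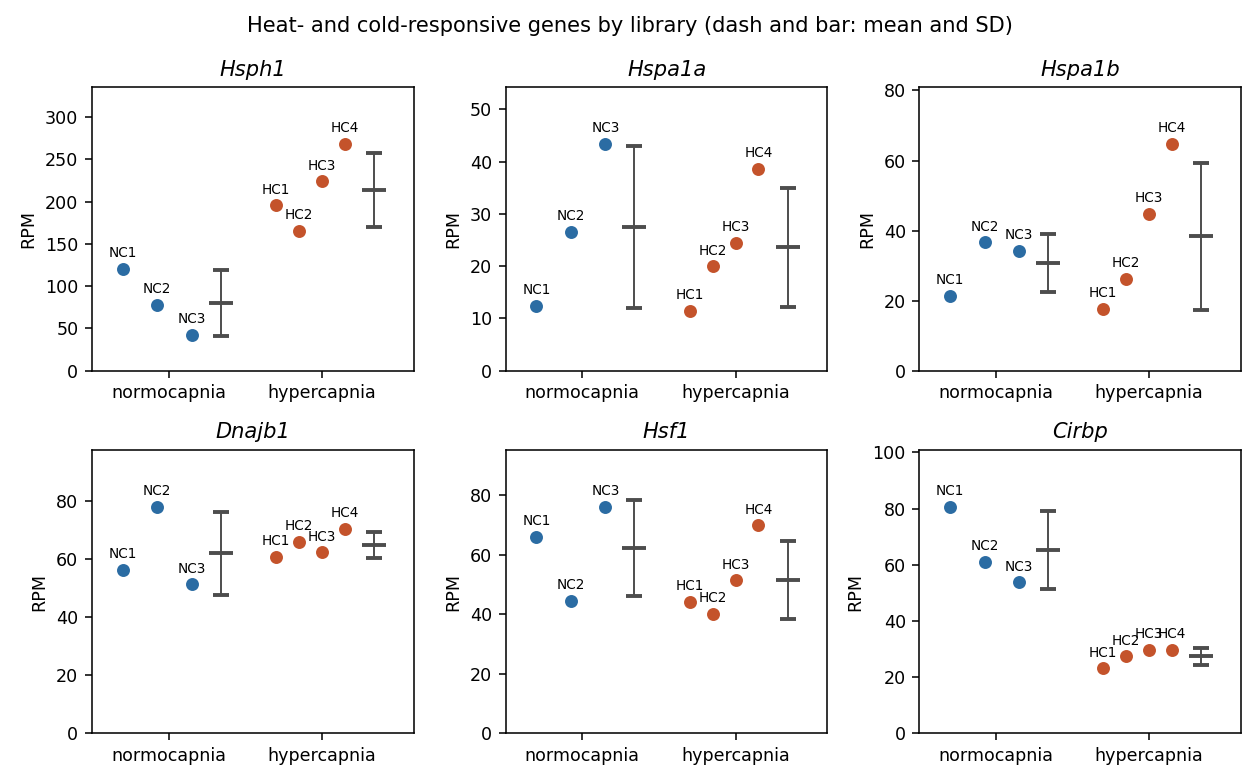
RPM of the 6 measured members in each library (points, labeled NC1 to NC3 in normocapnia and HC1 to HC4 in hypercapnia), with the group mean and SD (dash and bar). The groups do not overlap for Hsph1, higher in hypercapnia, and Cirbp, lower in hypercapnia, and they overlap for Hspa1a, Hspa1b, Dnajb1 and Hsf1.

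Hsph1 encodes HSP110, a large relative of HSP70 that works as its nucleotide exchange factor and helps to pull apart aggregates. It stood at 120.2, 78.0 and 42.1 RPM across NC1 to NC3 and at 195, 165, 224 and 268 RPM across HC1 to HC4. Every hypercapnia library was above every normocapnia library, and NC3 was the lowest of all. Group means were 80.1 ± 39.1 RPM (SD, n = 3) and 213 ± 43.7 RPM (SD, n = 4), a log2 fold change of 1.5 (SE 0.382) on the log2(RPM + 1) scale. The log2 fold change was 1.85 without NC1 and 1.11 without NC3. With the replicate number as a block it was 1.38 (SE 0.457), and Hsph1 was then not past the limits. For Hsph1 the log2 difference was 0.89 among the libraries high in Xist and 2.51 among those low in Xist, in the same direction, and it was 1.55 with Xist as a covariate. These splits hold at most 2 libraries a group, and the part of sex in the results was not tested further.

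The site that HSF1 recognizes is a run of GAA units, and a promoter was searched for the pairs GAANNTTC and TTCNNGAA, which read alike on both strands. The promoters of RefSeq (GRCm38.p6) were used, over the 250 bases before the start site, and 5 of the 6 measured members matched an entry there. One pair was found for Hsph1, in the 30 bases printed here with the pair in capitals, at chr5:149636351-149636380 on the minus strand. The stretch is written 5′ to 3′ in the direction of the gene and the first base of the pair lies at -33 and -54 from the 2 start sites that RefSeq gives. In GENCODE, an annotated exon overlaps the printed stretch, and which transcript it belongs to was not recorded.
Hsph1: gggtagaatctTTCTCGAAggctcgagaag
Across 32851 promoters, 6.69% held GAANNTTC, 7.17% held TTCNNGAA and 12.8% held either, so that such a pair is common and its presence is a description of the letters and not of binding.

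Hspa1a and Hspa1b encode the inducible HSP70, the chaperone most closely tied to heat shock, and they are neighbouring copies of almost identical sequence. Over the 250 bases before the start site, 247 bases (98.8%) were identical between them, and each holds 1 GAANNTTC pair at -104. The Hspa1b stretch is shown because it stands for both genes and shows the pair, in capitals, in its setting. It lies at chr17:34959239-34959488 on the minus strand of GRCm38.p6 and is written in the direction of the gene.
Hspa1b: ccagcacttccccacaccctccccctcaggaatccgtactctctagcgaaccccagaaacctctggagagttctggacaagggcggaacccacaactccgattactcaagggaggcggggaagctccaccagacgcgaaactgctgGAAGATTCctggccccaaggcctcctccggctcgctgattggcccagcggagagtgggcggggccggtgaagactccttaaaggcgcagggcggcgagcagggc
The TATA sequence TATAAA, searched on both strands, was not found in these letters in any of the 5 members, while 12.4% of all promoters held it.

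Hspa1a stood at 12.4, 26.6 and 43.4 RPM across NC1 to NC3 and at 11.4, 19.9, 24.4 and 38.7 RPM across HC1 to HC4. The groups overlapped almost completely, with means of 27.4 ± 15.5 RPM (SD, n = 3) and 23.6 ± 11.4 RPM (SD, n = 4). The log2 fold change was -0.17 (SE 0.561), and it ran from -0.63 without NC1 to 0.24 without NC3, so that no direction can be given. Hspa1b stood at 21.4, 36.7 and 34.3 RPM across NC1 to NC3 and at 17.6, 26.2, 44.8 and 64.7 RPM across HC1 to HC4. The lowest and the highest libraries were both from hypercapnia, and the means were 30.8 ± 8.21 RPM (SD, n = 3) and 38.3 ± 20.9 RPM (SD, n = 4). Its log2 fold change was 0.18 (SE 0.490), and it took both signs over the alternatives, from -0.12 to 0.49. The log2 difference of Hspa1b was -0.37 among the libraries high in Xist and 0.64 among those low in Xist. For Hspa1a these were -0.25 and -0.48.

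The spread of this gene pair was mostly within the groups rather than between them. In hypercapnia, HC1 was the lowest and HC4 the highest library for both genes, and in normocapnia NC1 was the lowest for both. On centred log2(RPM + 1) values over the 7 libraries, Hspa1a and Hspa1b were the closest of all pairs of members, with a root mean square distance of 0.37. The ratio of Hspa1b to Hspa1a values is no measure of their relative levels, since it depends on how well each is amplified, but it can be followed across libraries: it was between 1.31 and 1.83 in 6 libraries and 0.790 in NC3. No source used here gives how reads of such near-identical copies were assigned, and the values of the individual copies are uncertain.

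Dnajb1 encodes a J-domain protein (HSP40) that hands clients to HSP70 and starts its cycle. It stood at 56.5, 78.2 and 51.4 RPM across NC1 to NC3 and at 60.8, 65.9, 62.4 and 70.6 RPM across HC1 to HC4. All hypercapnia libraries lay inside the range of normocapnia, with means of 62.0 ± 14.2 RPM (SD, n = 3) and 64.9 ± 4.35 RPM (SD, n = 4). The log2 fold change was 0.09 (SE 0.154), the smallest of the 6 members. It turned to -0.06 with median-of-ratios scaling and to -0.10 in DESeq2, and it was 0.26 without NC2. The log2 difference was -0.07 among the libraries high in Xist and 0.36 among those low in Xist. Neither heat shock pair was found in the 250 bases before either of its start sites in RefSeq.

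Hsf1 encodes the heat shock factor itself, whose activity is set mainly by the state of the protein and less by its transcript. It stood at 66.1, 44.5 and 76.3 RPM across NC1 to NC3 and at 44.3, 40.1, 51.4 and 69.9 RPM across HC1 to HC4. The groups overlapped, with means of 62.3 ± 16.2 RPM (SD, n = 3) and 51.5 ± 13.2 RPM (SD, n = 4). The log2 fold change of -0.27 (SE 0.266) was about as large as its error, and it was negative in all 16 alternatives, from -0.51 to -0.11. Within the libraries high in Xist the log2 difference was -0.36, and within those low in Xist it was -0.34.

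Cirbp encodes a glycine-rich RNA-binding protein whose transcript rises in mild cold and which binds and stabilizes other messages. It stood at 80.7, 61.1 and 53.8 RPM across NC1 to NC3 and at 23.2, 27.4, 29.6 and 29.7 RPM across HC1 to HC4. All 4 hypercapnia libraries were below all 3 normocapnia libraries, and they lay close to each other. Means were 65.2 ± 14.0 RPM (SD, n = 3) and 27.5 ± 3.05 RPM (SD, n = 4), a log2 fold change of -1.20 (SE 0.164). Its log2 fold change ran from -1.38 to -1.04 over the 16 alternatives. It was lower in hypercapnia within both Xist classes, by a log2 difference of -1.44 among the libraries high in Xist and -0.84 among those low in Xist. In bulk RNA, fewer cells with the transcript and less of it per cell cannot be told apart, for Cirbp as for the other members. NC1, the library highest in Pax7, had the highest Cirbp and the highest Hsph1 of normocapnia, and its macrophage sum was the lowest. The part of cell composition in the level of either gene was not tested.

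No heat shock pair was found for Cirbp in the 250 bases before either of its start sites. The stretch upstream of its first start site is shown for contrast with the HSP70 promoter, at chr10:80167589-80167777 on the plus strand of GRCm38.p6, from -250 to -62. It is printed without capitals because neither pair nor TATAAA is in it.
Cirbp: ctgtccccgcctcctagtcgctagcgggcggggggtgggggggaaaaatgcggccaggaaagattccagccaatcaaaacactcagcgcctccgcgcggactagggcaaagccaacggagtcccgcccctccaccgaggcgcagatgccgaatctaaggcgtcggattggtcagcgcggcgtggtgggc
That these letters are missing from this window says nothing of what binds there.

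**Figure D2:**
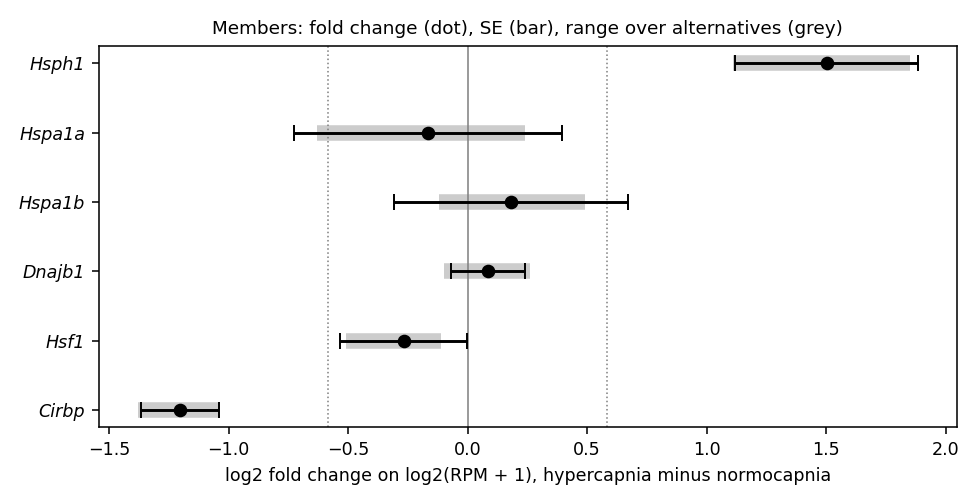
Log2 fold change of each measured member on log2(RPM + 1), hypercapnia minus normocapnia (dot), with its SE (black bar) and the range over 16 alternative analyses (grey band); dotted lines mark a 1.5-fold change. Hsph1 (1.5) and Cirbp (-1.20) lie beyond the dotted lines over their whole grey bands, and the grey bands of Hspa1a, Hspa1b and Dnajb1 cross 0.

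Scaling moved the fold changes of all members together. The median log2 fold change of the 12504 genes that average 1 RPM or more was 0.16 on RPM values, 0.04 after median-of-ratios scaling and -0.04 in DESeq2. With median-of-ratios scaling Hsph1 was at 1.36, Cirbp at -1.34, Hspa1a at -0.31 and Dnajb1 at -0.06, so that the sign of a fold change as small as that of Dnajb1 is set by the choice of scaling. Within groups, the median residual SD was 0.45 on the log2 scale over the 6 members and 0.48 over all genes that average 10 RPM or more.

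Across the 7 libraries, Hsph1 and Cirbp were the most distant pair of members (root mean square distance 1.37). Hsph1 was lowest in NC3 and highest in HC4, whereas Cirbp was highest in NC1 and lowest in HC1. The genes nearest to each were different ones. Nearest to Cirbp, among 8223 genes that average 10 RPM or more, were Foxn3, a forkhead repressor (distance 0.20), Sema6b, a semaphorin of axon guidance (0.22), and Fbrsl1 (0.25). Foxn3 stood at 156, 162 and 109.7 RPM across NC1 to NC3 and at 70.2, 70.3, 78.9 and 73.1 RPM across HC1 to HC4, the same separation as Cirbp with a narrow hypercapnia group. Nearest to Hsph1 were Grhpr, a glyoxylate reductase (0.20), Aars, the alanyl-tRNA synthetase (0.21), and Rrp8, which acts in the nucleolus (0.25). Aars stood at 240.4, 146 and 63.9 RPM across NC1 to NC3 and at 282, 276, 304 and 354 RPM across HC1 to HC4, with the same low value in NC3. Nearest to Hspa1b were Agmo (0.27), Gsn, which encodes the actin-severing protein gelsolin (0.28), and Eng (0.34), at larger distances. These distances describe likeness over 7 libraries, are chosen from many genes, and carry no test.

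**Figure D3:**
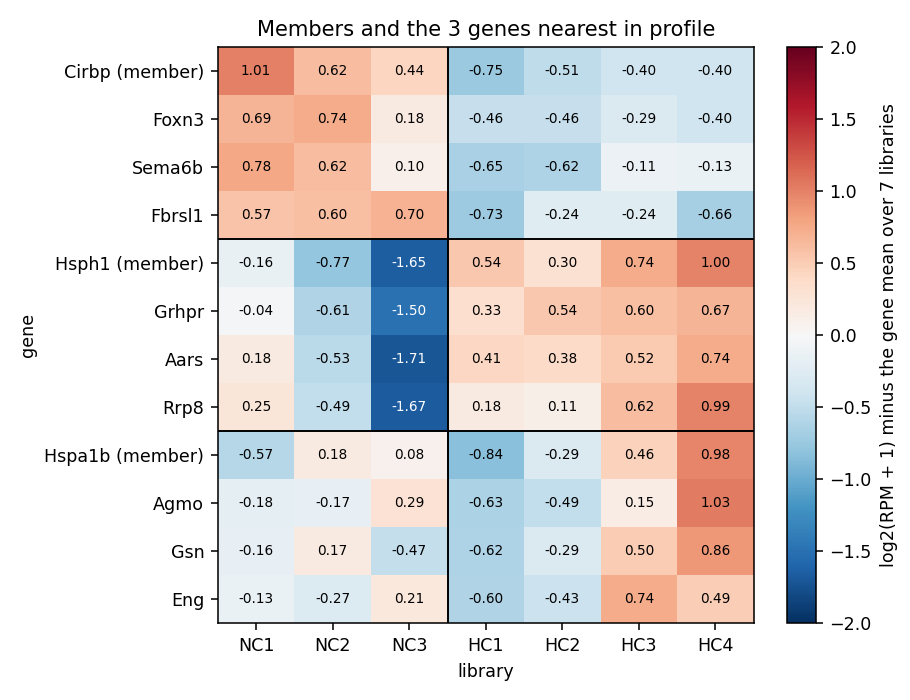
Centred log2(RPM + 1) values (color and printed number: value minus the mean of the gene over the 7 libraries) of Cirbp, Hsph1 and Hspa1b, each above the 3 genes nearest in profile; columns are libraries, with a line between normocapnia and hypercapnia. Cirbp and its neighbours are above their mean in all normocapnia libraries and below it in all hypercapnia libraries, Hsph1 and its neighbours are lowest in NC3, and Hspa1b and its neighbours are lowest in HC1.

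To set the members beside related genes, 10 lists were counted without the members themselves, 7 of chaperones, their partners and heat shock factors and 3 of cold-shock domain proteins, CLK kinases and dissociation-responsive immediate early genes: 98 of 106 listed genes matched a row. Of these, 10 were called (10.2%), 5 higher and 5 lower in hypercapnia, and 0 passed adjustment over all genes in limma (lowest adjusted p 0.650). Among the 78 that average 10 RPM or more, 8 were called (10.3%, against 5.54% of all such genes) and 11 had groups that did not overlap (14.1%, against 9.62%). The median log2 fold change over the 98 genes was 0.04, beside 0.16 over all genes that average 1 RPM or more. The split of higher and lower calls depended on the method, at 3 and 9 in edgeR and 4 and 11 in DESeq2. The split over all genes shifted in the same direction, from 343 and 272 in limma to 294 and 508 in edgeR and 519 and 785 in DESeq2. No list was tested as a set. The lists were chosen with earlier results of these data known, so nothing is read from these shares.

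Next to Hsph1 stand its partners and relatives in the HSP70 and HSP110 system. Of 16 genes measured, Bag5, a BAG-domain nucleotide exchange factor of HSP70, was called lower at 5.67, 7.40 and 9.29 RPM across NC1 to NC3 and 2.83, 3.02, 2.31 and 6.09 RPM across HC1 to HC4 (log2 fold change -0.93, SE 0.308). The groups overlapped through HC4, the call held in 10 of 16 alternatives (not with a pseudocount of 5 RPM, at -0.55), and the list had a median of 0.12, which was below 0 with each change of scaling. Hspa4, another HSP110 gene and the highest in RPM of the list, was not called: it ran from 199 to 435 RPM in normocapnia and from 236 to 404 RPM in hypercapnia. The difference between Hspa4 and Hsph1 was not tested.

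J-domain cochaperones, the family of Dnajb1, had 3 of 14 genes called, all of them lower in hypercapnia (all 3 average over 10 RPM, where 5.54% of genes were called in either direction). The list median was -0.12, with a range over the alternatives from -0.39 in DESeq2 to -0.02 without HC2, and it was -0.36 without NC2. Dnajc5, the cysteine string protein of secretory vesicles, stood at 84.1, 99.1 and 136 RPM across NC1 to NC3 and at 67.0, 80.2, 60.8 and 59.9 RPM across HC1 to HC4 (log2 fold change -0.64, SE 0.194). Dnajb4 (-0.67, SE 0.253) and Dnajb14 (-0.59, SE 0.223), a J-domain protein of the endoplasmic reticulum, were also apart between the groups. These calls were unsteady: of 16 alternatives, Dnajc5 was called in 12, Dnajb4 in 9 and Dnajb14 in 2. Dnajc5 and Dnajb14 were both lost with the filter at 1 RPM (log2 fold change -0.64 and -0.59), with median-of-ratios scaling (-0.78 and -0.73) and with the replicate block (-0.59 and -0.53), and Dnajb14 also in edgeR (-0.86) and DESeq2 (-0.91). Dnajc7, the highest in RPM of the list, overlapped (-0.16, SE 0.345).

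Among HSP90 cochaperones, Ahsa1, which speeds the ATPase of HSP90, was called higher. It stood at 158, 92.9 and 86.7 RPM across NC1 to NC3 and at 203, 185, 182 and 212 RPM across HC1 to HC4, with no overlap (log2 fold change 0.84, SE 0.223, limma adjusted p 0.836). Of the 11 measured genes of this list 7 were on the higher side and 4 on the lower, with a median of 0.39. That median was 0.09 without NC3, 0.18 in edgeR and 0.14 in DESeq2. Hsp90ab1, the constitutive HSP90 itself, overlapped at 1862 to 3660 RPM and 2055 to 3446 RPM (-0.12, SE 0.298). Among 7 small heat shock proteins Hspb9 was called higher, at 6.11, 7.70 and 4.68 RPM across NC1 to NC3 and 14.1, 11.8, 10.7 and 13.5 RPM across HC1 to HC4 (0.93, SE 0.170, limma adjusted p 0.650, the lowest of the 98 genes). Cryab, the muscle crystallin and the highest in RPM of that list, varied more within normocapnia (18.8 to 328 RPM) than between the groups. Ahsa1 and Hspb9 were called in all 16 alternatives.

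Chaperonins fold actin and tubulin in the cytosol and imported proteins in mitochondria. Of 14 chaperonin and prefoldin genes Cct3, a subunit of the cytosolic ring, was called higher (50.3, 60.6 and 30.3 RPM in normocapnia, 79.9, 65.3, 68.8 and 69.5 RPM in hypercapnia, and a log2 fold change of 0.63 with an SE of 0.243). It was called in 4 of 16 alternatives, and was lost with the filter at 1 RPM (0.63), with median-of-ratios scaling (0.49), in edgeR (0.52), in DESeq2 (0.48) and with the replicate block (0.64). Cct5, the subunit with the highest RPM in the list, overlapped at 0.06 (SE 0.163). All 5 organelle paralogues of HSP70 and HSP90 had fold changes above 0, with a median of 0.60 (0.32 without NC2), but 1 of 5 turned below 0 in edgeR, DESeq2 and the median-of-ratios fit, 1 did without NC3 and 2 did without NC2. Hyou1, the HSP110 relative of the endoplasmic reticulum, was called higher at 71.9, 82.2 and 39.4 RPM across NC1 to NC3 and 98.6, 98.0, 116 and 109 RPM across HC1 to HC4 (0.76, SE 0.263). Its call held in 9 of 16 alternatives, and was lost in edgeR without its filter (0.64) and with the replicate block (0.74). Hsp90b1, the HSP90 of the same compartment, was apart between the groups but not called (0.66, SE 0.305).

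Around Hsf1, the 5 measured genes of the HSF family and its binding proteins had 0 calls and fold changes below 0, with a median of -0.25 (-0.57 in DESeq2 and -0.16 with a pseudocount of 5 RPM), and 1 of them was above 0 without NC1, NC2 or NC3. That median is the value of Hsf4, which averages 1.29 RPM, and Hsf2bp (1.41 RPM) and Hsf5 (0.32 RPM) were also low. Over the 4 genes that average 1 RPM or more the median was -0.40. Hsbp1, a negative regulator of HSF1 and the highest in RPM of them, was highest in NC3, at 671 RPM against 160 to 270 RPM in NC1 and NC2 and 192 to 225 RPM in hypercapnia.

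Related to Cirbp by function, the 7 measured cold-shock domain proteins had 0 calls and a median of -0.03, with 1 fitted higher and 6 lower. That median is set by Ybx2, Lin28a and Lin28b, which average under 0.1 RPM. Over the 4 genes that average 1 RPM or more it was -0.43 in limma and -0.51 in edgeR, and over all 7 it was -0.81 in DESeq2. Ybx1, the highest in RPM of them, overlapped (0.25, SE 0.267). CLK kinases, whose activity in splicing rises when body temperature falls, had 1 call among 4 genes, beside 5.54% of all genes that average 10 RPM or more. The values here are of their RNA and not of that activity. Clk1 stood at 130.0, 112 and 168 RPM across NC1 to NC3 and at 72.7, 70.0, 94.4 and 87.9 RPM across HC1 to HC4 (log2 fold change -0.73, SE 0.178, limma adjusted p 0.809). All hypercapnia libraries were below all normocapnia libraries, as for Cirbp, while Clk3 overlapped (0.01, SE 0.226).

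Heat shock genes and immediate early genes also respond to the digestion of tissue. Of 15 dissociation-responsive immediate early genes Atf3 was called higher in hypercapnia, at 651, 830.0 and 383 RPM across NC1 to NC3 and 967, 1097, 992 and 1065 RPM across HC1 to HC4 (log2 fold change 0.80, SE 0.266), and Fos overlapped at 0.05 (SE 0.283). Atf3 was called in 7 of 16 alternatives, and was lost in edgeR with and without its filter (both 0.66) and with the replicate block (0.78). The summed level of the list was 11779 to 20666 RPM in normocapnia and 12341 to 13468 RPM in hypercapnia. Whether dissociation had a part in the level of Hsph1 was not tested.

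Most of the 10 calls among related genes were lost when a library was left out, in part through a smaller fold change and in part through a larger p at nearly the same fold change. Without NC3, 8 of the 10 were lost, and the log2 fold change was under the limit for Dnajc5 (-0.45), Dnajb14 (-0.34), Cct3 (0.35), Hyou1 (0.44), Clk1 (-0.58) and Atf3 (0.49), while Bag5 (-0.78) and Dnajb4 (-0.62) stayed past it. Without NC1 the lost calls were Dnajb4 (-0.64), Cct3 (0.71) and Atf3 (0.87), and without NC2 they were Bag5 (-0.93), Dnajb14 (-0.67) and Dnajb4 (-0.75). Leaving out single hypercapnia libraries changed Hyou1 and Atf3 little, at 0.71 to 0.79 and 0.77 to 0.83, and their calls were lost each time because p passed 0.05 with fewer samples. Cct3 was lost in the same way at 0.64 to 0.67 without HC2, HC3 or HC4, and without HC1 its log2 fold change of 0.57 was also under the limit. Bag5 was lost without HC1, HC2 or HC3 (-0.89 to -0.80), Dnajb14 without any of the 4 (-0.65 to -0.53), and Dnajb4 without HC1 (-0.61) or HC2 (-0.49).

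**Figure D4:**
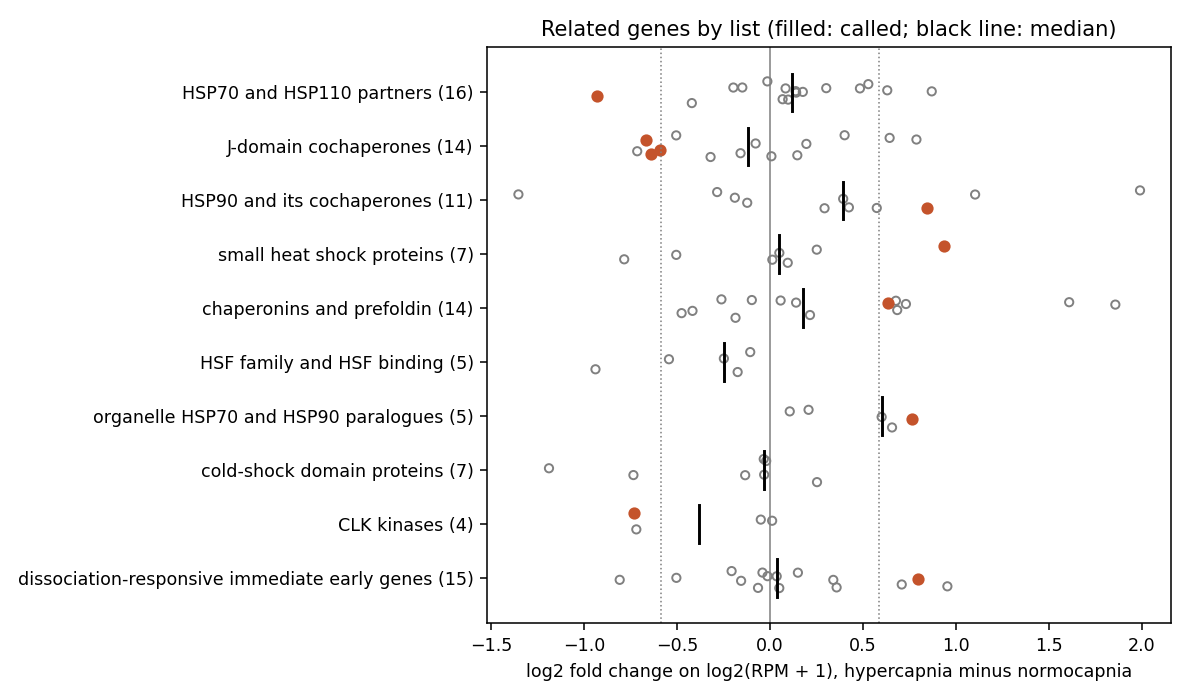
Log2 fold change on log2(RPM + 1), hypercapnia minus normocapnia, of the 98 measured genes in 10 lists of related genes (number measured in parentheses); filled points are called, black lines are list medians and dotted lines mark a 1.5-fold change. The 10 called genes lie on both sides of 0, with the 3 called J-domain cochaperones all lower.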

How the data were processed

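RNA of sorted Pax7-GFP+ cells was measured in 3 normocapnia and 4 hypercapnia libraries, grouped by the sample labels. The authors made Ion AmpliSeq Transcriptome Mouse libraries and deposited a table of RPM (reads scaled to a common total in each library). Aligner and genome build: not given in the sources used here. The submitters' processing notes name the Transcriptome Analysis Console. From the deposited RPM, whole reads were recovered within 0.05 of a read for 100% of values, which gave the depth of each library.

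Differences were fitted on log2(RPM + 1) for the 23930 genes together, unfiltered, using limma 3.58.1 (R 4.3.3). Calls needed p under 0.05 before adjustment and a fold change over 1.5, with Benjamini-Hochberg adjustment over all genes beside it. The members and the lists were chosen with earlier results of these data known. Named besides the members were, in each list, every called gene (at most 4) and the gene with the highest mean RPM, and the 3 genes nearest in profile to Cirbp, Hsph1 and Hspa1b. Alternatives were pseudocounts of 0.1 and 5 RPM, median-of-ratios scaling, a filter that keeps genes averaging 1 RPM, edgeR 4.0.16 (with and without its filter) and DESeq2 1.42.0 on the recovered reads, the replicate number as a block, and leaving out each library. Xist as a covariate was added after seeing the data. The fits were tested on simulated counts with the same relative spread for all genes and no differences in sex or cell composition. That setting is simpler than these data. The labels do not say whether the libraries of a group are separate animals, so p-values measure the spread between these samples. Promoters came from RefSeq (GRCm38.p6). A planned comparison of proteins was not run.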

Additional observations from a re-analysis of the deposited data

Results flagged for a closer look

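Clk3, a kinase of the CLK list, was at 103 RPM in HC1, HC2 and HC4 and at 117 RPM in HC3. The gap between HC3 and the nearest of the other hypercapnia libraries was 0.991 of the range of the group, above Dixon's 95% critical value for 4 samples. It was the only gene so marked in hypercapnia among the 26 examined, which were the members and the genes named from the lists. Chance marks about 1 group in 20.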

How the results depend on the processing

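The members were selected on this comparison, so the count of members past the limits is a description and no sign of stability: it was 2, and 1 with the replicate number as a block, where Hsph1 was at 1.38 (SE 0.457). Whether replicate numbers pair the libraries was not settled. The correlation of deviations from the group means was -0.38 for NC1 with HC1, 0.51 for NC2 with HC2 and 0.03 for NC3 with HC3 over 8229 genes. Libraries of unlike number reached 0.44 (NC2 with HC1) and 0.39 (NC1 with HC3), and HC4 has no partner. The 10 calls among related genes became 6 with a filter at a mean of 1 RPM and 6 with the replicate block, and ran from 4 (without NC3 or HC1) to 14 (without NC1) when single libraries were left out. Ahsa1 and Hspb9 were called in all 16 alternatives. Among the members not called, Dnajb1 turned to -0.056 in the median-of-ratios fit, -0.055 and -0.045 in edgeR with and without its filter and -0.10 in DESeq2, and Hspa1b to -0.12 with the replicate block. Left-out libraries gave -0.63 to 0.24 for Hspa1a, -0.12 to 0.49 for Hspa1b and -0.036 to 0.26 for Dnajb1. Among the related genes named, those not called whose small log2 fold changes changed sign were, in the median-of-ratios fit, Hspa4 (-0.0031), Cryab (-0.12), Cct5 (-0.087), Clk3 (-0.13) and Fos (-0.094). In edgeR these were Cryab (-0.48), Cct5 (-0.10), Clk3 (-0.16) and Fos (-0.12), and without its filter -0.52, -0.077, -0.15 and -0.12 in the same order. In DESeq2 they were Hspa4 (-0.04), Cryab (-0.52), Cct5 (-0.15), Clk3 (-0.19) and Fos (-0.16). Cryab was -0.023 with a pseudocount of 5 RPM, and the replicate block gave -0.35 for Cryab and -0.02 for Cct5. When single libraries were left out, ranges of related genes that crossed 0 were -0.11 to 0.45 for Hspa4, -0.51 to 0.13 for Dnajc7, -0.40 to 0.086 for Hsp90ab1, -0.93 to 1.09 for Cryab, -0.10 to 0.15 for Cct5, -1.01 to 0.018 for Hsbp1, -0.045 to 0.48 for Ybx1, -0.17 to 0.28 for Clk3 and -0.24 to 0.36 for Fos. The cause of these changes was not tested.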
